A study of Mus musculus with 26 samples.

Results

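Batches 2 and 3 of an islet study each held islets of adult mice, and 6 adult libraries were compared here, 4 of batch 2 against 2 of batch 3, out of 26 libraries in all. They were chosen by the batch label alone, and the question was how far the stress and activation genes of adult islets differ between batches of the same age and strain. All mice were C57BL/6J, with no allele, drug or other agent named in the labels, and the adult mice were 2.5 months old. Hand-picked islets gave total RNA, ribosomal RNA was depleted, and the libraries were sequenced from both ends. What a batch stands for (animals, day, islet isolation or library preparation) is not said, so these cannot be told apart. Neonatal islets from postnatal day 5 served only as a check for a general batch difference, with 7 libraries in batch 2 (3 of small and 4 of large islets) and 5 in batch 3 (2 small and 3 large). The labels do not say which libraries came from separate animals, and p-values therefore measure only how far libraries spread, which may be technical. Small and large neonatal libraries of the same batch share a number in their names in 4 cases, which the main fit does not use. With those numbers as a block in limma (correlation 0.32), 2215 genes were called higher and 3592 lower in adult batch 2, beside 2219 and 3618 without it. The neonatal calls moved more, to 1660 higher and 1834 lower from 2160 and 2619, so neonatal calls near the threshold are uncertain.

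Islets isolated from the pancreas by enzyme digestion meet heat, shear, loss of blood supply and time in culture, and cells answer such insults with layered programmes. Immediate early genes such as Fos, Jun and Atf3 are switched on within minutes from existing transcription factors. The heat shock response, driven by HSF1, makes chaperones such as Hspa1b. The integrated stress response, through the kinases that phosphorylate eIF2 and the factor ATF4, makes Ddit3, Trib3 and Chac1, an enzyme that degrades glutathione. Cdkn1a encodes the cell cycle inhibitor p21, a target of p53 that other stress pathways also raise. This is background and not a result, and its part in the differences below was not tested.

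FPKM, fragments scaled by gene length and by library depth, is the unit throughout, and differences are of log2(FPKM + 1), batch 2 minus batch 3, given with their standard error after ±. A value below 0 means a lower level in batch 2. That scale understates the change of genes near or below 1 FPKM. A gene was called at an adjusted p under 0.05 by limma over 13473 genes. Adult libraries of batch 2 held 25194006 to 27404210 fragments and those of batch 3 held 17337348 and 18458928. Any pair of adult batch 2 libraries differed by 0.0972 to 0.165 on average over genes, in absolute log2 terms, the pair of batch 3 by 0.137, and pairs across the batches by 0.367 to 0.406. Between 10 and 63 genes were a log2 unit or more apart within adult batch 2, 44 within batch 3, and 642 to 800 across. Neonatal large batch 3 replicate 14 stood apart from its batch, with a median distance of 0.352 to the other 4 libraries against 0.203 to 0.235 for the rest, and it enters the neonatal values and the shared estimate of spread. The adult libraries also differed in sex-linked RNA. Xist, the RNA that silences an X chromosome in female cells, was at 0.0183, 0.0165, 35.5 and 84.6 FPKM in batch 2 replicates 1 to 4 and at 120 and 122 FPKM in batch 3. Ddx3y, a gene of the Y chromosome, was at 29.0, 27.2, 1.84 and 0 FPKM in batch 2 and at 0 FPKM in both batch 3 libraries. The batch 2 adults therefore differ among themselves in Xist and Ddx3y, and batch 2 replicates 3 and 4, whose library names begin with F, are set against batch 3 as an alternative.

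Promoters of the 4 marker genes are shown because these genes were set as markers of the stress state, not because of their rank. Each window holds 250 bases before and 50 after a RefSeq start (GRCm38.p6), read 5′ to 3′ along the gene. Capitals mark matches to response elements on either strand: the heat shock element cores TTCNNGAA and GAANNTTC of HSF1, the C/EBP-ATF core TGATGNAA used by ATF4, the cAMP response element TGACGTCA, the AP-1 element TGANTCA and the metal elements TGCACNC and TGCGCNC. The Atf3 window (chr1:191183284-191183583, minus strand, inside the GENCODE M21 gene model at chr1:191170296-191218039) had a C/EBP-ATF core and a TGCGCNC match. The Hspa1b window (chr17:34959189-34959488, minus strand, gene at chr17:34956436-34959238) had 1 heat shock core. The first of the RefSeq starts of Cdkn1a (chr17:29090729-29091028, plus strand, gene at chr17:29090976-29100727) had 1 heat shock core, and the window at the other start had no match. The Chac1 window (chr2:119350992-119351291, plus strand, gene at chr2:119351229-119354381) had 1 C/EBP-ATF core.
Atf3: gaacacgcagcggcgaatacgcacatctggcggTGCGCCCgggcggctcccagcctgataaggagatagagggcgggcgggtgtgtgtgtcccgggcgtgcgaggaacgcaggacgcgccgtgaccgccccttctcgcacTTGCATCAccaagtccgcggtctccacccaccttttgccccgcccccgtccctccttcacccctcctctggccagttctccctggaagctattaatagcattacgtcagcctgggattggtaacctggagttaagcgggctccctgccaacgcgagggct
Hspa1b: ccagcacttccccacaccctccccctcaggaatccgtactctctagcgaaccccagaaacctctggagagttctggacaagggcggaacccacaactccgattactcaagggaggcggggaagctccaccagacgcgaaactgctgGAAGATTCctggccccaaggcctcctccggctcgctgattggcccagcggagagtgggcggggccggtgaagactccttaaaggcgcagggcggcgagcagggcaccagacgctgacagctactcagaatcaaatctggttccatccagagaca
Cdkn1a: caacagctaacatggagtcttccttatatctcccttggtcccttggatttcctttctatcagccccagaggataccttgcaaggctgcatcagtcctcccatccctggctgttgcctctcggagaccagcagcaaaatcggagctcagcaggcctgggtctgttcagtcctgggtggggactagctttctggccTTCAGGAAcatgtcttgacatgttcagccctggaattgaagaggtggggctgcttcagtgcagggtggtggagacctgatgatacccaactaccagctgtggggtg
Chac1: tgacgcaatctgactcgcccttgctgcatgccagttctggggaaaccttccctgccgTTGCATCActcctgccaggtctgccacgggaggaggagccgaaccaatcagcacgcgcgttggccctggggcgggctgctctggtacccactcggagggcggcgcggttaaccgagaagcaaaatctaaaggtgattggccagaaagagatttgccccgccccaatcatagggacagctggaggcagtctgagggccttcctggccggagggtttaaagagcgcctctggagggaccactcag
The core in Atf3 and in Chac1 was the same 8 letters TTGCATCA, which reads as TGATGNAA on the other strand. Among 32851 RefSeq promoter windows of this length, 3.97% held the C/EBP-ATF core, 8.52% TTCNNGAA, 7.86% GAANNTTC, 1.79% TGACGTCA, 7.81% TGANTCA, 12.6% TGCACNC and 15.4% TGCGCNC. These matches did not overlap another match of the motifs searched. Elements of p53 and of other factors were not searched, so they may lie in or across the letters shown. A match describes letters, not binding.

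The 4 markers were higher in every adult library of batch 2 than in either of batch 3. Atf3, a stress-induced transcription factor of the ATF family, had 102, 136, 171 and 166 FPKM in batch 2 and 0.582 and 0.485 FPKM in batch 3. Its batch 3 libraries held 23 and 18 fragments and its batch 2 libraries 6002 to 9735, and the groups were far from overlapping. The Atf3 difference was 6.53 ± 0.67 (SE, limma adjusted p = 6.37e-06). Hspa1b, an inducible HSP70 chaperone, had 195, 272, 309 and 244 FPKM in batch 2 and 1.23 and 3.10 FPKM in batch 3. The difference was 6.38 ± 0.41 (SE, limma adjusted p = 2.82e-08), and Hspa1a, its neighbour, differed by 5.87 ± 0.42 (SE, limma adjusted p = 8.95e-08). The coding sequences of these paralogs are nearly identical and their promoter windows shared 296 of 300 bases, so how reads were split between them is uncertain. Cdkn1a had 47.4, 45.8, 45.4 and 51.7 FPKM in batch 2 and 5.68 and 5.14 FPKM in batch 3. Its 4 batch 2 values were close together, and the difference was 2.92 ± 0.23 (SE, limma adjusted p = 8.15e-08). Chac1 had 101, 87.1, 86.2 and 90.3 FPKM in batch 2 and 7.92 and 17.7 FPKM in batch 3. Within batch 3 replicate 6 was above replicate 5, yet both were far below batch 2, by 2.83 ± 0.39 (SE, limma adjusted p = 5.49e-05).

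**Figure D1:**
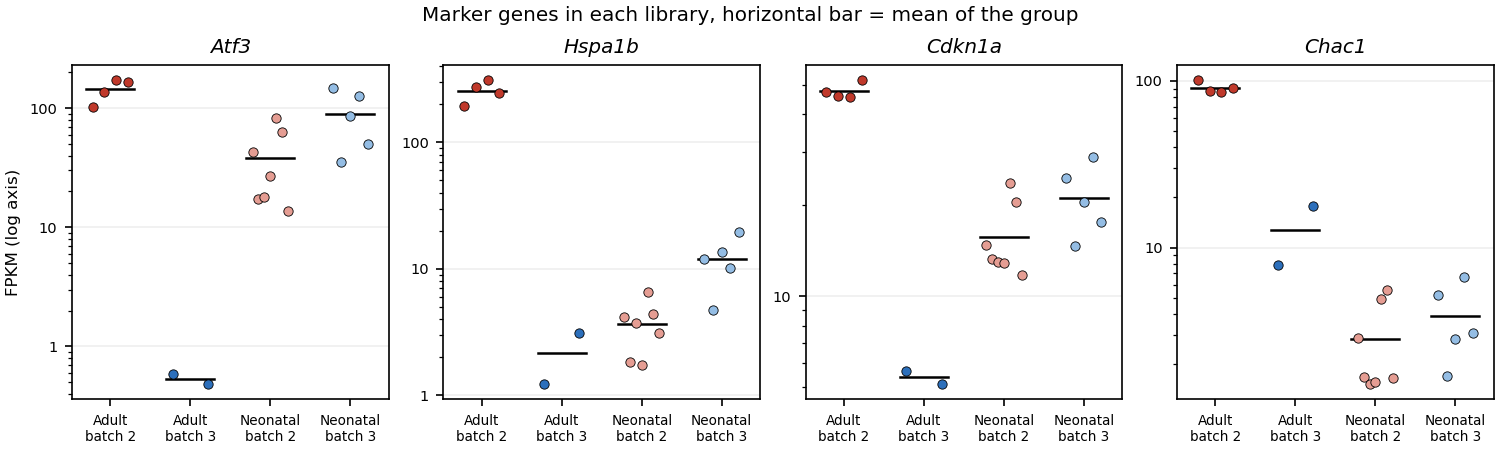
FPKM on a log axis of Atf3, Hspa1b, Cdkn1a and Chac1 in the 4 adult libraries of batch 2, the 2 of batch 3, and the 7 and 5 neonatal libraries of these batches, 1 point per library. The batch 2 adults lie above the batch 3 adults for all 4 genes, while the medians of the neonatal batch 2 libraries lie below those of neonatal batch 3.

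The neonatal libraries did not repeat the adult pattern. Atf3 had a median of 27.1 FPKM in neonatal batch 2 and 85.5 FPKM in neonatal batch 3, so that its batch difference there was -1.26 ± 0.46 (SE, limma adjusted p = 0.0487). Hspa1b had medians of 3.76 and 11.9 FPKM, a difference of -1.47 ± 0.28 (SE, limma adjusted p = 0.0016). Medians were 13.3 and 20.5 FPKM for Cdkn1a and 1.67 and 3.07 FPKM for Chac1, which differed by -0.41 and -0.37, with adjusted p = 0.0527 and 0.304 by limma. The adult minus neonatal difference was tested directly in the same fit. It was 7.79 ± 0.82 for Atf3, 7.85 ± 0.49 for Hspa1b, 3.33 ± 0.28 for Cdkn1a and 3.20 ± 0.48 for Chac1, all called by limma.

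Over all genes, 2219 of 13473 were called higher in adult batch 2 (16.5%) and 3618 lower (26.9%). The split of calls leaned on the scaling: after median-of-ratios rescaling 2709 were higher and 2758 lower, so that the share of higher calls moved from 38.0% to 49.6%. The median difference of all genes was -0.11, and -0.05 after that rescaling. Batch 3 has only 2 adult libraries, and without replicate 5 or replicate 6 of it 2366 or 2089 genes were called lower. Sizes were less even than counts, and large differences were mostly rises. A log2 difference of at least 1 was reached by 529 higher and 78 lower genes, of at least 2 by 139 and 3, and of at least 3 by 47 and 1. With pseudocount 0.1 in place of 1, which weights low genes more, 705 were higher and 431 lower by at least 1, so the small number of large falls rests in part on the added 1. Limited to the F-named batch 2 libraries, 534 genes were higher and 69 lower by at least 1. In 24.6% of all genes the 4 adult batch 2 libraries lay wholly above both batch 3 ones, and in 43.8% wholly below.

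Neonatal islets differed between the batches as well, with few large differences between groups. Single neonatal pairs across the batches differed by 0.161 to 0.461 on average over genes, with a median of 0.271. Pairs within neonatal batch 3 differed by 0.185 to 0.405, so some neonatal pairs were as far apart as adult pairs across batches. Of the same 13473 genes 2160 (16.0%) were called higher and 2619 (19.4%) lower in neonatal batch 2, of which 1 and 26 reached a log2 difference of 1 and none reached 2. With the shared name numbers as a block, 1660 and 1834 were called. Of the 529 large adult rises, 37 were also called higher in neonatal batch 2 and 161 were called lower. Their median neonatal difference was -0.23, beside an adult median of 1.48. The adult difference was above the neonatal one in 2484 genes (18.4%) and below it in 3362 (25.0%). Of the 529 rises 528, and of the 78 falls 74, were among them. Those genes were chosen by the adult difference that also enters this test. Neonatal differences were small, with a median absolute size of 0.167 over all genes. The overlap therefore follows largely from the choice and is no separate support. Medians by gene length also moved, from -0.03 in the shortest of 5 bins of genes to -0.19 in the longest in adults and from -0.19 to 0.10 in neonates; the part of RNA quality in this was not tested.

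**Figure D2:**
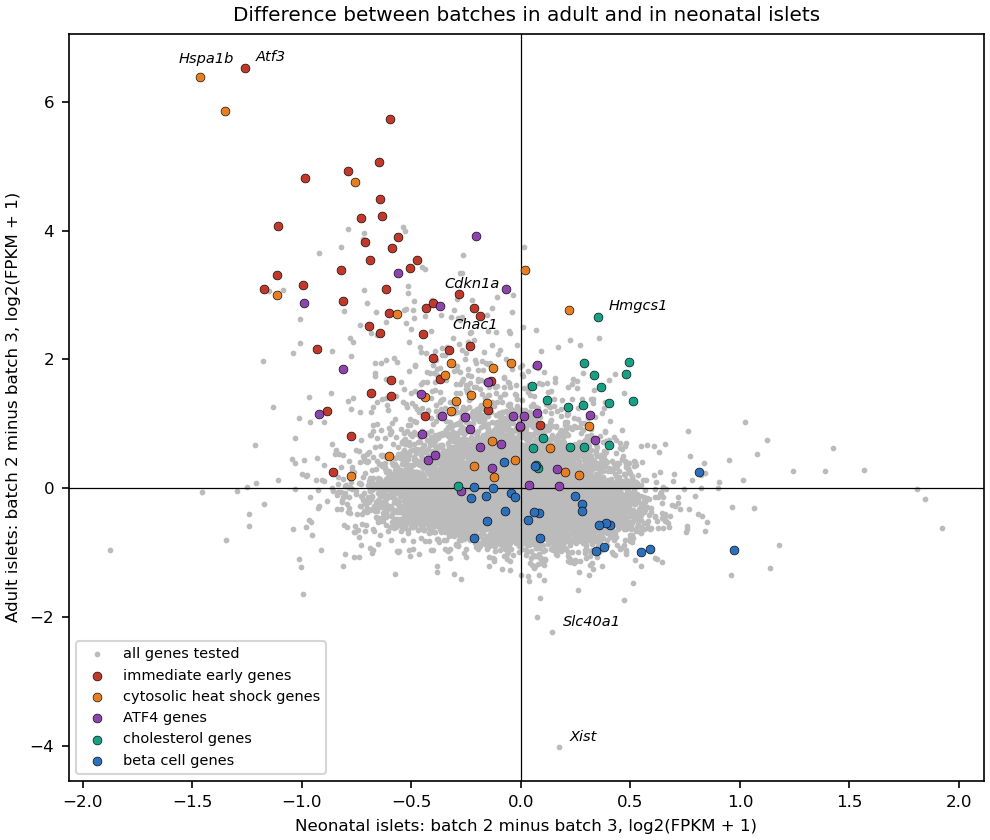
Batch 2 minus batch 3 in neonatal islets (x axis) against adult islets (y axis), both as differences of log2(FPKM + 1), 1 point per gene, with 5 gene lists in colour. Immediate early and heat shock genes sit high and mostly left of 0, cholesterol genes high and mostly right of 0, and beta cell genes mostly below 0.

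Setting the adult libraries among all 18 libraries of the batches showed which adult group departed from the rest. For the batches as a whole, both batch 3 adults were below every other library, neonatal ones included, in 12.5% of genes, and the 4 batch 2 adults were above every other library in 8.32%. In the other direction, batch 2 adults were below all others in 20.6% and batch 3 adults above all others in 12.4%. Among the 529 large rises, 320 had the batch 2 adults at the top, 335 the batch 3 adults at the bottom, 143 of these both, and 17 neither. The lists below differed in this placement, which is given as a description without a test, since age differs as well. In bulk islets, fewer cells of a type and less RNA per cell cannot be told apart, for any gene below.

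Immediate early and activation genes had the largest median difference of the 38 gene lists examined. Of 45 tested genes 43 were called higher in adult batch 2 and none lower, against 16.5% and 26.9% of all genes, with a median difference of 2.88. Fosb, a partner of Jun in AP-1, had 515, 668, 758 and 619 FPKM in batch 2 and 10.9 and 10.9 FPKM in batch 3. Even the lowest batch 2 library was far above batch 3, by 5.74 ± 0.48 (SE, limma adjusted p = 3.22e-07). Junb, another AP-1 subunit, had 216, 323, 434 and 389.5 FPKM in batch 2 and 11.2 and 10.2 FPKM in batch 3. Jun itself had 306, 471, 675 and 538 FPKM in batch 2 and 21.9 and 27.7 FPKM in batch 3. Their differences were 4.82 ± 0.33 (SE, limma adjusted p = 1.83e-08) and 4.22 ± 0.28 (SE, limma adjusted p = 1.41e-08). In each of these AP-1 genes replicate 1 was the lowest of batch 2 and replicate 3 the highest, and no batch 2 value came near batch 3.

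The orphan nuclear receptor gene Nr4a1 had 174, 229.5, 280.1 and 279 FPKM in batch 2 and 3.42 and 12.7 FPKM in batch 3, so batch 3 was itself spread, and the difference was 4.93 ± 0.63 (SE, limma adjusted p = 3.27e-05). Arc, best known as an activity-dependent gene of neurons, had 33.6, 61.8, 74.7 and 73.0 FPKM in batch 2 and 0.798 and 0.717 FPKM in batch 3. Npas4, an activity-dependent factor of neurons and beta cells, had 26.9, 41.0, 66.3 and 43.7 FPKM in batch 2 and 0.630 and 1.25 FPKM in batch 3. Both stood near 1 FPKM in batch 3, and they differed by 5.07 ± 0.34 and 4.50 ± 0.34. Maff, a small MAF factor, differed by 4.20 ± 0.45 and Csrnp1, a nuclear protein induced by AXIN1 signalling, by 4.08 ± 0.66. Here the batch 3 adults were the unusual group. In 42 of the 45 genes the batch 3 adults were below every other library, and in 12 the batch 2 adults were above every other one. Summed over the list, the level was 3509 to 5953 FPKM in batch 2 adults, 409.6 to 455 in batch 3 adults, 2870 to 6214 in neonatal batch 2 and 3519 to 8288 in neonatal batch 3. Adult batch 2 thus lay within the neonatal range for the sum and adult batch 3 outside it. In neonatal islets 22 of the 45 genes were called lower in batch 2 and none higher.

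Targets of NF-κB, the factor of inflammatory signalling, followed the same direction, with 25 of 31 called higher, 1 lower and a median of 1.79. Tnfaip3, which encodes the feedback inhibitor A20, had 28.3, 55.8, 52.5 and 49.6 FPKM in batch 2 and 1.81 and 2.08 FPKM in batch 3. The difference was 3.97 ± 0.54 (SE, limma adjusted p = 6.58e-05). Relb, a subunit of NF-κB, had 20.9, 27.5, 25.8 and 27.2 FPKM in batch 2 and 1.66 and 1.49 FPKM in batch 3 and differed by 3.35 ± 0.19 (SE, limma adjusted p = 2.52e-09). Birc3, an inhibitor of cell death that NF-κB induces, differed by 2.93 ± 0.24. The chemokine Cxcl10 was at 7.56, 13.2, 9.61 and 8.43 FPKM in batch 2 and 0.5003 and 0.0381 FPKM in batch 3, with batch 3 replicate 5 well above replicate 6 and both below batch 2. Cytokine transcripts were low throughout. Il6 was at 1.45, 1.42, 2.95 and 2.95 FPKM in batch 2 and 0 and 0 FPKM in batch 3, with 0 fragments in both batch 3 libraries, where a count of 0 allows up to 3, so no fold is given. Ccl2 was at 2.95, 4.34, 2.48 and 3.46 FPKM in batch 2 and 0.135 and 0 FPKM in batch 3. The exception that was called lower was Sod2, a mitochondrial superoxide dismutase, at -0.26 ± 0.07, and it missed the threshold without batch 3 replicate 6 (-0.24, adjusted p = 0.0775 by limma). The 4 batch 2 adults stood above every other library in 13 of the 31 genes, and the 2 batch 3 adults stood below every other library in 16.

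Cytosolic heat shock genes were higher in adult batch 2 in 23 of 27 cases, with none called lower and a median of 1.36. Beside Hspa1b and Hspa1a, Dnajb1, the co-chaperone of HSP70, had 306, 384, 411 and 364 FPKM in batch 2 and 10.2 and 15.3 FPKM in batch 3. This was 4.76 ± 0.24 (SE, limma adjusted p = 1.1e-09). Hsph1, an HSP110 exchange factor for HSP70, had 218, 299.8, 301 and 266 FPKM in batch 2 and 23.9 and 25.4 FPKM in batch 3. The groups were tight and apart by 3.40 ± 0.16 (SE, limma adjusted p = 4.34e-10). The batch 2 adults exceeded every other library in 19 of the 27 genes, beside 8.32% of all genes. The batch 3 adults were below every other one in 9, beside 12.5% of all genes. The summed level was 4795 to 5697 FPKM in batch 2 adults, 1679 to 1682 in batch 3 adults and 1951 to 3038 over the neonatal libraries. Both adult groups thus lay outside the neonatal range for the sum, batch 2 above it and batch 3 below. For mitochondrial chaperones and proteases 6 of 10 were higher and 1 lower, 60% and 10% beside 16.5% and 26.9% of all genes. In neonatal batch 2, 5 of the 10 were called higher and 1 lower. The adult difference was above the neonatal one in 7 and below it in 2. Hspe1 and Hspd1, which encode the mitochondrial HSP10 and HSP60 that share a promoter region, differed by 2.12 ± 0.25 and 1.39 ± 0.09. The protease subunit Clpx differed by 0.74 ± 0.08 and the co-chaperone Grpel1 by 0.76 ± 0.18, whereas Trap1, a mitochondrial HSP90, was lower at -0.41 ± 0.08.

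ATF4 and integrated stress response genes were called higher in 26 of 29 cases and lower in none, with a median of 1.12. Ddit3, which encodes the factor CHOP, had 247, 270.3, 294 and 262 FPKM in batch 2 and 14.9 and 18.6 FPKM in batch 3. Every batch 2 value was far above batch 3, and the difference was 3.93 ± 0.31 (SE, limma adjusted p = 1.17e-07). Trib3, a pseudokinase that CHOP and ATF4 induce, had 47.8, 39.8, 28.0 and 30.1 FPKM in batch 2 and 2.14 and 4.82 FPKM in batch 3. Within batch 2 replicates 1 and 2 were above replicates 3 and 4, and all were above batch 3, by 3.10 ± 0.23 (SE, limma adjusted p = 5.91e-08). Ppp1r15a, which encodes GADD34 and restores translation, had 116, 137, 133 and 125 FPKM in batch 2 and 12.6 and 10.7 FPKM in batch 3 and differed by 3.35 ± 0.29. Cebpb, the bZIP factor C/EBPβ, differed by 2.88 ± 0.22. The placement split within the list. For Ddit3, Trib3 and Chac1 the batch 2 adults were above all other libraries, and for Ppp1r15a and Cebpb the batch 3 adults were below all others. Among aminoacyl tRNA synthetases, many of which ATF4 drives, 10 of 20 were higher and 1 lower, with small sizes: Aars 0.98 ± 0.12, Cars 0.70 ± 0.13, Yars 0.64 ± 0.08 and Nars 0.57 ± 0.09. Vars was lower, at -0.35 ± 0.08. In neonatal batch 2, 7 of the 20 synthetase genes were called higher and none lower. The adult difference was above the neonatal one in 6 and below it in 2.

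Endoplasmic reticulum chaperone and unfolded protein response genes were higher in 17 of 36 cases and lower in none, with a median of 0.38. Herpud1, a factor of protein degradation at the reticulum, had 631, 662, 464 and 450.4 FPKM in batch 2 and 90.8 and 100.1 FPKM in batch 3. It differed by 2.50 ± 0.20 (SE, limma adjusted p = 1.12e-07). Hspa5, the chaperone BiP, had 2191, 2403, 2006 and 1812 FPKM in batch 2 and 758 and 573 FPKM in batch 3 and differed by 1.66 ± 0.21 (SE, limma adjusted p = 1.65e-05). For Derl3, a degradation channel component, the values were 36.9, 35.9, 19.7 and 18.3 FPKM in batch 2 and 6.48 and 3.60 FPKM in batch 3. In Herpud1, Derl3 and Creld2 batch 2 replicates 1 and 2, those with Xist near 0, were above replicates 3 and 4. Derl3 differed by 2.22 ± 0.32 over all 4 and Creld2, an ATF6 target, by 1.53 ± 0.27. The list was also higher in neonatal batch 2, in 16 of 36 genes with none lower and a median of 0.29. The adult difference was above the neonatal one in 10 and below it in 3. Over the alternatives the number called higher ran from 11 to 19. Quantile normalization gave 11 higher and 4 lower with a median of 0.14, and without batch 3 replicate 6 there were 12 higher and 2 lower with a median of 0.23.

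The p53 targets were mixed, with 14 of 32 higher and 6 lower. These shares of 43.8% and 18.8% stood beside 16.5% and 26.9% of all genes. Besides Cdkn1a the higher genes included Gadd45a, a damage- and stress-induced growth arrest gene, at 43.2, 43.8, 28.3 and 33.8 FPKM in batch 2 and 6.13 and 6.10 FPKM in batch 3. It differed by 2.41 ± 0.26. Plk2, a kinase of the polo family, differed by 1.69 ± 0.24 and Btg2, an antiproliferative gene that also behaves as an immediate early gene, by 1.67 ± 0.31. The lower ones included genes of repair and nucleotide supply. Polk, a translesion polymerase, was lower at -0.74 ± 0.09, Ddb2, a sensor of ultraviolet lesions, at -0.62 ± 0.15, and Rrm2b, the p53-inducible ribonucleotide reductase subunit, at -0.52 ± 0.09. Gadd45a, Plk2, Btg2 and Cdkn1a, which other stress pathways also raise, had the batch 3 adults below every other library. For Cdkn1a the batch 2 adults were also above every other library. They ran from 45.4 to 51.7 FPKM, against 11.8 to 28.8 FPKM over the neonatal libraries.

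Of 25 DNA damage checkpoint genes 2 were higher and 8 lower, or 5 lower without batch 3 replicate 6. The lower share of 32.0% stood beside 26.9% of all genes, and the median of -0.14 beside -0.11. Wee1, a kinase that restrains entry into mitosis, was the exception, at 18.0, 16.9, 18.8 and 19.7 FPKM in batch 2 and 4.18 and 4.59 FPKM in batch 3, or 1.84 ± 0.12. Atm, the kinase that responds to double-strand breaks, had 9.72, 8.56, 9.65 and 9.48 FPKM in batch 2 and 18.2 and 21.9 FPKM in batch 3. Batch 3 was above batch 2 in both libraries, and the difference was -1.02 ± 0.19 (SE, limma adjusted p = 0.000536). Prkdc, the DNA-dependent protein kinase, was lower at -0.88 ± 0.12 and Rad50, of the break-sensing MRN complex, at -0.62 ± 0.09. In neonatal islets 8 of the 25 were higher in batch 2 and 1 lower. Batch 3 adults were above every other library in 2 of the 25, and batch 2 adults below every other library in 7. Pro-apoptotic genes were higher in 7 of 20 (4 without batch 3 replicate 6) and lower in 3. With all libraries the pro-apoptotic shares were 35.0% higher and 15.0% lower, beside 16.5% and 26.9% of all genes. Pmaip1, the BH3-only protein NOXA, was higher by 0.87 ± 0.16, while Casp8, the initiator caspase of death receptors, was lower at -0.86 ± 0.11. Bbc3, which encodes PUMA, differed by 1.27 ± 0.37 and missed the threshold without batch 3 replicate 6 (1.10, adjusted p = 0.105). Of 11 anti-apoptotic genes 3 were higher and 1 lower, 27.3% and 9.09% beside 16.5% and 26.9% of all genes. Among them were Mcl1 at 1.21 ± 0.20 and, as the lower one, Xiap at -0.53 ± 0.10. Of 14 senescence genes 7 were higher and 4 lower, 50.0% and 28.6% beside 16.5% and 26.9% of all genes. The lower count fell without batch 3 replicate 5. The mitosis list had 0 higher and 1 lower of 21, 0% and 4.76% beside the same 16.5% and 26.9%.

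Metallothioneins, small zinc- and copper-binding proteins that metals, glucocorticoids and oxidants induce, were among the most abundant of the higher transcripts. Mt2 had 851, 771, 794 and 955 FPKM in batch 2 and 56.5 and 66.4 FPKM in batch 3. Neonatal medians were 14.8 and 28.2 FPKM, so the batch 2 adults stood above all other libraries by a wide margin, and the adult difference was 3.76 ± 0.40 (SE, limma adjusted p = 4.44e-06). Mt1 had 657, 599, 542 and 660.4 FPKM in batch 2 and 86.3 and 92.2 FPKM in batch 3 and differed by 2.77 ± 0.25 (SE, limma adjusted p = 3.41e-07). The zinc exporter Slc30a1, a target of the metal sensor MTF1, differed by 0.99 ± 0.14 while the zinc importer Slc39a10 was lower at -0.50 ± 0.08. Of the 7 metal genes 4 were higher and 1 lower, 57.1% and 14.3% beside 16.5% and 26.9% of all genes. Genes of NRF2, the factor of the antioxidant response, were higher in 8 of 23 and lower in 2, with a median of 0.06. These shares of 34.8% and 8.7% stood beside 16.5% and 26.9% of all genes. Without batch 3 replicate 5 none was lower, and quantile normalization gave 4 lower and a median of -0.06. Hmox1, heme oxygenase, had 23.2, 20.6, 23.5 and 27.5 FPKM in batch 2 and 2.38 and 3.30 FPKM in batch 3, a difference of 2.69 ± 0.22. Sqstm1, the autophagy receptor p62, differed by 1.64 ± 0.13 and Srxn1, sulfiredoxin, by 1.51 ± 0.13. The NRF2 target Nqo1 was lower at -0.41 ± 0.11, a call that was lost without batch 3 replicate 5 (-0.34, adjusted p = 0.0772). Hypoxia response genes were higher in 8 of 21 and lower in 3, but higher in 4 without batch 2 replicate 2 and in 5 without batch 3 replicate 5 or 6. Without batch 3 replicate 6 just 1 was lower. With all libraries the hypoxia shares were 38.1% higher and 14.3% lower, beside 16.5% and 26.9% of all genes. Slc2a1, the glucose transporter GLUT1, differed by 1.25 ± 0.13 and Pfkfb3, an activator of glycolysis, by 0.88 ± 0.12. Pdk1, a brake on pyruvate use, was lower at -0.59 ± 0.08.

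Circadian clock genes were higher in 14 of 19 cases and lower in 2, with a median of 1.17. Nfil3, a repressor in the clock's output, had 99.1, 109, 117 and 109 FPKM in batch 2 and 5.45 and 7.60 FPKM in batch 3. It differed by 3.88 ± 0.37 (SE, limma adjusted p = 1.35e-06). Nr1d1, the repressor REV-ERBα, had 123, 121, 131 and 132 FPKM in batch 2 and 18.3 and 10.7 FPKM in batch 3 and differed by 3.09 ± 0.47 (SE, limma adjusted p = 0.000135). Bhlhe40 differed by 2.73 ± 0.41 and Per1, which glucocorticoids and cAMP also induce, by 2.08 ± 0.26. Per3 was lower, at -0.98 ± 0.19. In 13 of the 19 genes the batch 2 adults were above every other library. The hour at which islets were taken is not in the labels, and its part in this was not tested. Glucocorticoid response genes were higher in 6 of 11 and lower in 3, or 1 lower without batch 3 replicate 6. With all libraries the shares were 54.5% higher and 27.3% lower, beside 16.5% and 26.9% of all genes. Errfi1, a feedback inhibitor of the EGF receptor, was higher by 2.22 ± 0.29 and the kinase Sgk1 by 1.54 ± 0.34. Pdk4, a kinase that also answers to fasting, was lower at -1.33 ± 0.25, and so was Fkbp5, a co-chaperone of the receptor, at -0.58 ± 0.15, which missed the threshold without batch 3 replicate 6 (-0.53, adjusted p = 0.0533).

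Cholesterol synthesis and uptake genes, the targets of SREBP2 in sterol-poor cells, were higher in 19 of 20 cases and lower in none, with a median of 1.31. Hmgcs1, which makes the substrate of HMG-CoA reductase, had 144, 114, 173 and 143 FPKM in batch 2 and 20.0 and 23.2 FPKM in batch 3. The groups were far apart relative to their spread, by 2.67 ± 0.13 (SE, limma adjusted p = 4.34e-10). Msmo1, a sterol demethylating oxidase, had 72.5, 56.4, 78.6 and 71.9 FPKM in batch 2 and 14.7 and 19.6 FPKM in batch 3 and differed by 1.97 ± 0.17. Cyp51 differed by 1.95 ± 0.12 and Idi1, an isomerase of the isoprenoid steps, by 1.77 ± 0.20. Unlike the early genes, this list was higher in neonatal batch 2 too, in 11 of 20 with 1 lower, though at a median of 0.29. The adult difference was above the neonatal one in 14 and below it in none. In 16 of 20 genes the batch 2 adults were above every other library. The summed level was 961.5 to 1156 FPKM in batch 2 adults, 389 to 429.8 in batch 3 adults and 328 to 446 over the neonatal libraries. For the immediate early, heat shock, ATF4 and cholesterol lists, with none called lower, 0 genes were lower at an unadjusted p under 0.05 by limma and 0 by voom; for the endoplasmic reticulum list these counts were 2 and 0.

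Type I interferon response genes did not share a direction, with 7 of 28 higher, 5 lower and a median of -0.14. These shares of 25.0% and 17.9% stood beside 16.5% and 26.9% of all genes. Rsad2, the antiviral enzyme viperin, was at 15.3, 15.4, 13.4 and 14.3 FPKM in batch 2 and 7.91 and 4.45 FPKM in batch 3, a difference of 1.16 ± 0.18. Irf9, a subunit of the interferon-activated factor ISGF3, differed by 0.83 ± 0.12 and the RNA sensor Ddx58 by 0.75 ± 0.09. The lower calls hung on the batch 3 library taken: 0 were lower without replicate 5 and 11 without replicate 6.

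**Figure D3:**
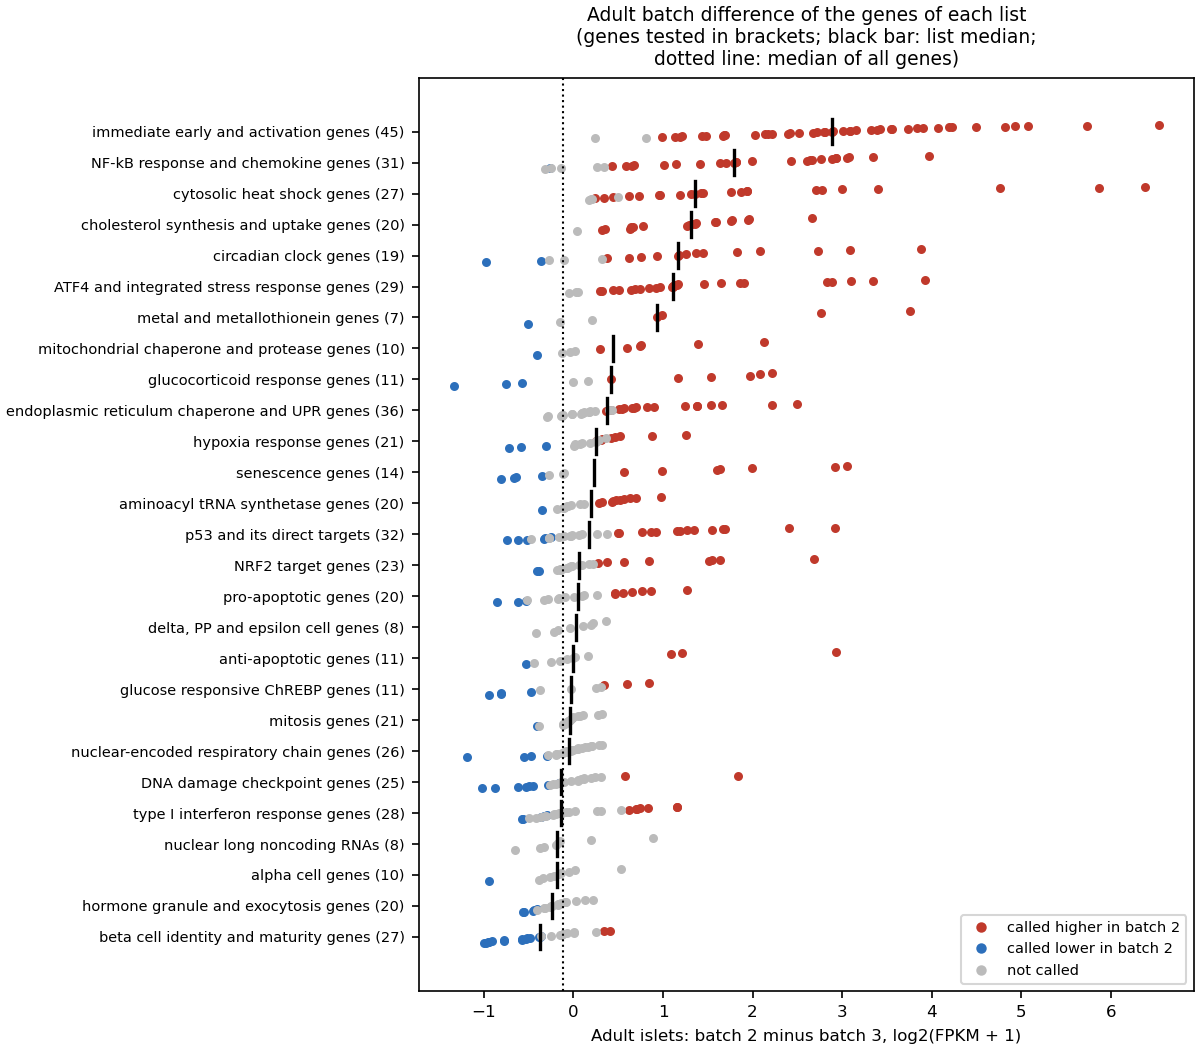
Difference of log2(FPKM + 1) between adult batch 2 and batch 3 for each tested gene of 27 lists, coloured by its call, with the list median as a black bar and the median of all genes as a dotted line. The immediate early list lies furthest right, with a median of 2.88, and the beta cell list furthest left, with a median of -0.37.

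**Figure D4:**
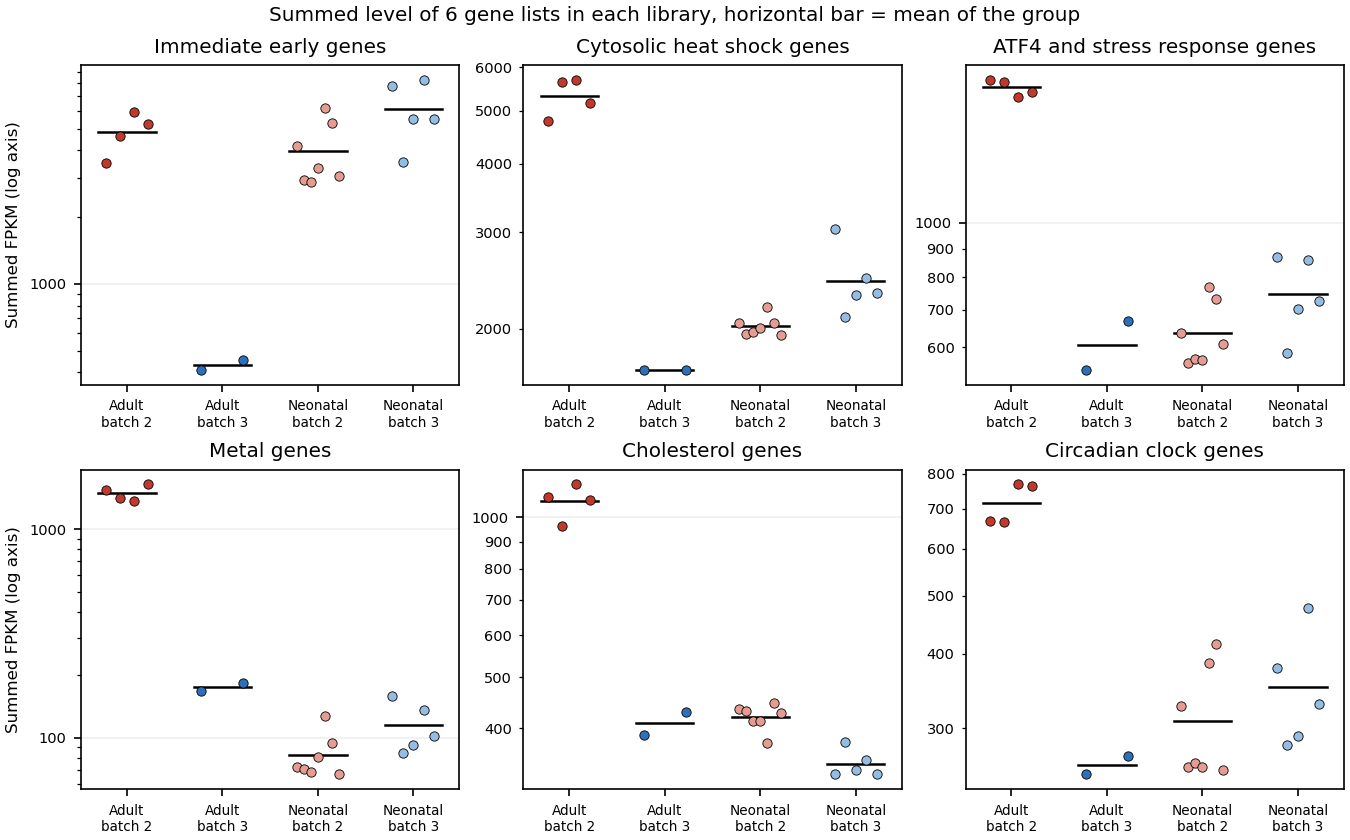
Summed FPKM on a log axis of 6 lists in each adult and neonatal library of batches 2 and 3, 1 point per library, bars at group means. For immediate early and heat shock genes the batch 3 adults lie below all other libraries. For the 5 lists other than the immediate early one the batch 2 adults lie above all others.

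Beta cell identity and maturity genes were lower in adult batch 2 in 15 of 27 cases and higher in 2, beside 26.9% and 16.5% of all genes, with a median of -0.37 beside -0.11 for all genes. Insulin shares overlapped. Ins1 and Ins2 together made up 34.2, 32.8, 26.8 and 26.8% in batch 2 and 33.0 and 32.9% in batch 3, so that the batch 3 shares lay inside the batch 2 range. An exact test of 4 against 2 libraries has 15 arrangements and cannot go below 0.0667 on one side, so none is given. Slc2a2, the glucose transporter GLUT2 of beta cells, had 162, 143, 160.1 and 159 FPKM in batch 2 and 308 and 315 FPKM in batch 3. It was lower at -0.995 ± 0.15 (SE, limma adjusted p = 7.18e-05). Rfx6, a transcription factor of endocrine cells, had 23.9, 23.9, 29.5 and 27.1 FPKM in batch 2 and 49.4 and 55.1 FPKM in batch 3 and was lower at -0.98 ± 0.14 (SE, limma adjusted p = 3.86e-05). G6pc2, the islet glucose-6-phosphatase, had 528, 482, 438 and 438 FPKM in batch 2 and 784 and 1044 FPKM in batch 3 and was lower at -0.94 ± 0.18 (SE, limma adjusted p = 0.000685). The prolactin receptor gene Prlr had 47.1, 43.0, 45.9 and 42.3 FPKM in batch 2 and 80.0 and 94.9 FPKM in batch 3 and was lower at -0.95 ± 0.17. These 4 genes were higher in batch 2 than in batch 3 in neonatal islets, by 0.55, 0.34, 0.59 and 0.97 in that order, and the adult difference was below the neonatal one in 14 of the 27 genes and above it in 1. The batch 3 adults were above every other library in 12 of the 27. Over the alternatives 11 to 16 genes were called lower.

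Hormone granule and exocytosis genes were lower in 5 of 20, a share of 25.0% beside 26.9% of all genes, and higher in none, Sytl4, a Rab27 effector on granules, at -0.56 ± 0.10 and the vesicle SNARE Vamp2 at -0.45 ± 0.09; without batch 3 replicate 5 or 6, 3 were lower, and without neonatal replicate 14, which bears on the shared spread, 11 were. Glucose-responsive targets of ChREBP were split, with 3 of 11 higher and 4 lower, 27.3% and 36.4% beside 16.5% and 26.9% of all genes. Pklr, pyruvate kinase, was lower at -0.81 ± 0.11 and Acly, ATP citrate lyase, at -0.81 ± 0.17, while Rgs16, a regulator of G protein signalling, was higher by 0.84 ± 0.20 and Arrdc4, an arrestin-like protein, by 0.60 ± 0.14. Of 26 respiratory chain genes encoded in the nucleus 4 were lower, 15.4% beside 26.9% of all genes, and none higher. Without neonatal replicate 14 there were 4 higher and 6 lower, with the 6 adult libraries alone 4 and 8, and under quantile normalization 0 and 10. Ndufa4, a subunit of the chain's last complex, had 41.1, 41.4, 35.9 and 30.5 FPKM in batch 2 and 86.0 and 84.9 FPKM in batch 3, lower at -1.19 ± 0.20. Glucagon transcripts, from Gcg, took 3.27, 4.33, 7.11 and 6.16% of all FPKM in batch 2 and 5.35 and 5.21% in batch 3, the batch 3 shares again inside the batch 2 range. Gcg, Sst of delta cells and Ppy of PP cells differed by -0.05, -0.17 and 0.20 with adjusted p of 0.909, 0.583 and 0.625 by limma. Of 10 alpha cell genes 1 was called lower, 10% beside 26.9% of all genes, and none higher. That gene was Slc7a2, an arginine transporter, at -0.95 ± 0.15. Of 8 delta, PP and epsilon cell genes none was called by limma or voom, with 0 at an unadjusted p under 0.05 by limma. Of 8 nuclear long noncoding RNAs none was called either, with 1 higher and 1 lower at an unadjusted p under 0.05.

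Genes with the largest falls in adult batch 2 belonged to no single list. Slc40a1, the iron exporter ferroportin, had 3.40, 3.11, 5.04 and 4.65 FPKM in batch 2 and 18.8 and 26.8 FPKM in batch 3. Neonatal medians were 19.4 and 16.0 FPKM, so the batch 2 adults were the low group, at -2.24 ± 0.18 (SE, limma adjusted p = 1.09e-07). Enpp2, which encodes the secreted lysophospholipase autotaxin, had 26.1, 27.2, 36.4 and 42.3 FPKM in batch 2 and 113 and 155 FPKM in batch 3 and was lower at -2.001 ± 0.19 (SE, limma adjusted p = 6.07e-07). Kctd12b, of the KCTD family of GABA-B receptor auxiliary proteins, had 5.59, 5.22, 7.20 and 6.68 FPKM in batch 2 and 22.5 and 22.9 FPKM in batch 3 and was lower at -1.73 ± 0.13. Ret, the receptor of GDNF family ligands, had 10.9, 10.0, 10.1 and 9.72 FPKM in batch 2 and 31.2 and 33.7 FPKM in batch 3 and was lower at -1.58 ± 0.14. For all 4 the batch 2 adults were below every other library. Gpr119, a lipid receptor that enhances insulin release, was lower at -1.45 ± 0.10, Gatm, the first enzyme of creatine synthesis, at -1.43 ± 0.17, and Nrep, a neuronal regeneration-related protein, at -1.35 ± 0.13. The extracellular matrix gene Matn2 was lower at -1.27 ± 0.13. Gas6, a ligand of TAM receptors, was lower at -1.33 ± 0.36 but not without batch 3 replicate 6 (-1.10, adjusted p = 0.0953). The largest fall by value, Xist, at -4.02 ± 1.49 (SE, limma adjusted p = 0.0456), rested on batch 2 replicates 1 and 2, where it was near 0, and among F-named libraries it was -1.13 (adjusted p = 0.112); without batch 2 replicate 1 it was -3.06 (adjusted p = 0.0922), without batch 2 replicate 2 also -3.06 (adjusted p = 0.0984), and without batch 3 replicates 5 or 6 it was -4.03 or -4.01 (adjusted p = 0.155 or 0.163). Slitrk6, a synaptic adhesion protein, had one of the lowest adult minus neonatal differences, at -1.79 ± 0.17: it was lower at -1.15 ± 0.14 in adults and higher by 0.64 in neonates.

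Few markers of other cell types were called. Of 24 acinar genes none was called by limma or voom, and 0 had an unadjusted p under 0.05 by limma, yet batch 2 replicate 1 stood apart, with a summed level of 6189 FPKM against 27.8 in the lowest batch 2 library and 173 to 356.5 in batch 3. Its acinar enzyme genes Cpa1 and Prss2 were at 375 and 445 FPKM. Leaving that library out, 540 genes were higher and 80 lower by at least 1, beside 529 and 78 with it. Of 13 duct list genes 4 were higher, 30.8% beside 16.5% of all genes, and none lower. Krt8 had 539, 584, 502 and 540.2 FPKM in batch 2 and 50.0 and 48.2 FPKM in batch 3, a difference of 3.43 ± 0.16 (SE, limma adjusted p = 4.34e-10), and its partner Krt18 differed by 2.07 ± 0.15. These keratins are expressed in many epithelia including islet cells, and the defining duct markers Krt19 and Sox9 were at 0.894 to 4.34 and 0.602 to 1.10 FPKM over the adult libraries and were not called. Of 17 macrophage genes 1 was higher and 3 lower, 5.88% and 17.65% beside 16.5% and 26.9% of all genes. Cx3cr1, the fractalkine receptor of macrophages, had 0.311, 0.316, 0.441 and 0.487 FPKM in batch 2 and 2.67 and 2.20 FPKM in batch 3. It was lower at -1.31 ± 0.13. Cd68 was higher by 0.63, while Csf1r and Itgax were lower at -0.40 and -0.44. These 3 each lost the call under some alternatives. The summed macrophage list ran from 245 to 320.0 FPKM in batch 2 and 218 to 335 in batch 3.

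Endothelial genes were lower in 5 of 16, a share of 31.2% beside 26.9% of all genes, with sums of 199 to 232 FPKM in batch 2 and 220.0 to 263 in batch 3, and the defining genes Pecam1 and Cdh5, at 14.8 to 20.3 and 9.23 to 15.1 FPKM over the adult libraries, were not called. Without batch 3 replicate 5 just 1 endothelial gene was lower. Mesenchymal genes were called lower in 2 of 20, 10% beside 26.9% of all genes, with sums of 178 to 246 FPKM against 268 to 326. Yet 16 of the 20 lay wholly lower in batch 2, beside 43.8% of all genes. The median was -0.60 in adults and -0.66 in neonates. The defining genes Col1a1 (5.48 to 8.87 against 15.9 and 19.6 FPKM) and Col3a1 (7.41 to 11.5 against 19.5 and 20.6 FPKM) did not overlap but were not called. Over the alternatives 0 to 15 were called lower, the most when the 6 adult libraries were fitted alone. Erythroid sums were 17.8 to 82.1 FPKM in batch 2 and 6.88 to 10.9 in batch 3; Hbb-bs, a globin gene with near-identical copies, had 33.1, 68.0, 14.2 and 25.3 FPKM in batch 2 and 7.99 and 4.44 FPKM in batch 3 and differed by 2.16 ± 0.46, with a limma adjusted p of 0.0513 when the 6 adult libraries were fitted alone. Of 8 Schwann cell genes Mbp, of myelin, was higher by 0.93 ± 0.08, and 1 was called lower, each 12.5% beside 16.5% and 26.9% of all genes. Of the 21 lymphocyte genes 3 were tested, with Cd79a at 3.12 to 7.06 FPKM and sums of 3.98 to 11.6 FPKM in batch 2 and 6.72 to 7.31 in batch 3. Without batch 2 replicate 1, the library of high acinar level, 43 of 45 immediate early genes, 24 of 27 heat shock genes and 23 of 29 ATF4 genes were called higher, beside 43, 23 and 26 with it. Of 2 adipocyte genes 1 was higher, and the 1 neutrophil gene tested, S100a9, was not called. The part of the other cell types was not tested.

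**Figure D5:**
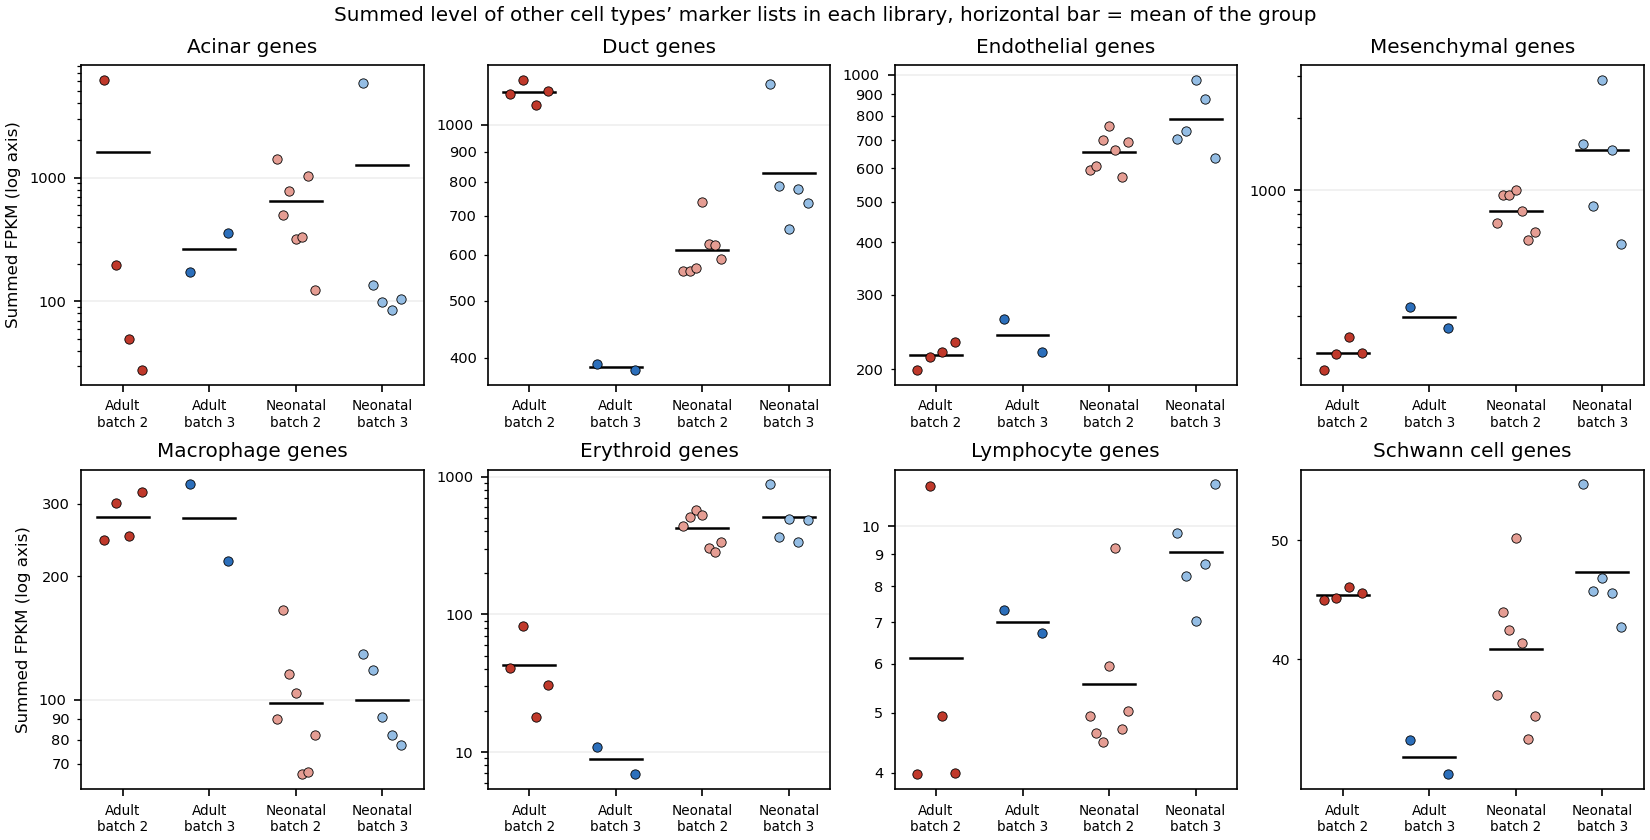
Summed FPKM on a log axis of 8 marker lists of cell types other than islet endocrine cells, 1 point per library, bars at group means. Acinar sums scatter within batch 2 adults from 27.8 to 6189 FPKM, duct sums, led by Krt8 and Krt18, are higher in all 4 batch 2 adults than in batch 3 adults, and endothelial and mesenchymal sums are below the neonatal ones in both.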

How the data were processed

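Total RNA of hand-picked mouse islets was sequenced in 26 libraries, of which the 18 of batches 2 and 3 entered the fit. The authors deposited FPKM values for 13641 genes, 1 value per library. Per the submitters' processing notes, edgeR, HTSeq 0.11.1 and STAR 2.6a were used with genome build mm10; which step each served is not said. The annotation, gene lengths and gene filter are not given in the sources used here, nor whether counting used strand. Names of 20 genes had been turned into dates and 2 names were repeated.

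Low FPKM values were whole multiples of what 1 fragment is worth, and 100% of values came out whole within 0.03 of a fragment. These fragments served for depth and 1 alternative. Depth was 17337348 to 31984084 fragments in batches 2 and 3, so a fold of a gene near 0 rests on few fragments. The allowance given for a count of 0 covers counting error only, while the standard errors after ± measure spread between libraries.

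Differences were tested with limma 3.58.1 (R 4.3.3, statmod 1.5.0) on log2(FPKM + 1), with 1 mean for each of the age, islet size and batch groups and 12 residual degrees of freedom, eBayes with trend and robust options, two-sided. Genes with at least 1 FPKM in at least 2 of the 18 libraries were kept, 13473 in all, and p-values were adjusted by Benjamini-Hochberg over them and called under 0.05. The neonatal batch difference was that of the mean of small and large islets. The procedure was tested on simulated data. Replicate numbers are those of the labels' order and the adult libraries of the batches share none.

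Named genes were the 4 markers, the 12 largest rises and 12 largest falls without overlap, up to 4 called genes per list and direction, the 6 highest and 6 lowest adult minus neonatal differences, and the hormone and sex-linked genes. Defining markers of other cell types are named besides. Of 173 such genes 163 were called and 121 were called under every alternative, and the text describes mainly these. The members and the 38 lists were chosen with earlier results of these data known. Promoters came from RefSeq tables of GRCm38.p6, and gene positions from GENCODE M21. Other settings are compared in the closing section.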

Additional observations from a re-analysis of the deposited data

Results flagged for a closer look

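The adult batch difference departed from the neonatal one in 5846 genes by the direct limma test of that difference. The adult minus neonatal difference, on the log2(FPKM + 1) scale, was above 0 for Hspa1b at 7.85, Atf3 at 7.79 and Hspa1a at 7.22. Other early genes followed, with Fosb at 6.33, Junb at 5.81, Nr4a1 at 5.72, Arc at 5.72, Csrnp1 at 5.18, Npas4 at 5.14, Maff at 4.93 and Jun at 4.86. The co-chaperone gene Dnajb1 stood at 5.51, Cdkn1a at 3.33 and Chac1 at 3.20.

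It was below 0 for Slc40a1 at -2.38, Kctd12b at -2.21, Enpp2 at -2.07, Prlr at -1.92, Ret at -1.84 and Slitrk6 at -1.79. Also below 0 were those of Cx3cr1 at -1.57, Gatm at -1.53, Gpr119 at -1.49, Nrep at -1.43, Matn2 at -1.22 and Pdk4 at -1.02. Each of these was past the threshold of the test of the difference.

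Single adult batch 2 libraries lay far from the other 3 in 7 of 212 sets of 4 values, where chance gives about 1 in 20 such sets. The acinar sum of 6189 FPKM and Ctrb1, chymotrypsinogen, at 788.3 FPKM were the highest of adult batch 2 and came from replicate 1. The highest Gas6 value was 7.375 FPKM, the highest S100a9 value 0.07222 FPKM and the highest lymphocyte sum 11.61 FPKM. The lowest Slc2a2 value was 143.1 FPKM and the lowest anti-apoptotic sum 250.6 FPKM.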

How the results depend on the processing

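The 4 counts of called genes were recomputed under 17 alternatives and stayed within 1.5 times their value except 1. Genes called lower in adult batch 2 numbered 3618 and ran from 2089 to 4305 when a library was left out, the lowest values being 2366 without batch 3 replicate 5 and 2089 without replicate 6. Genes called higher ran from 1593 to 2631 over the same fits. The planned fits with edgeR and DESeq2 on recovered fragments were not run, since the deposited unit is FPKM. A voom fit on the recovered fragments, added after seeing the data, called 2069 genes higher and 3470 lower. Also added after seeing the data, the F-named batch 2 libraries alone gave 1811 and 2526, and leaving out neonatal large batch 3 replicate 14 gave 2631 and 4305. With the numbers shared by neonatal library names as a block, also added then, 2215 and 3592 were called. In neonatal islets that block gave 1660 higher and 1834 lower, beside 2160 and 2619. For the adult minus neonatal difference it gave 2322 above and 3169 below, beside 2484 and 3362.

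Of 2934 recomputed values of named genes, 2770 kept their direction and side of the threshold, 146 lost the call, 6 gained it and 12 changed sign. All sign changes were of genes not called. Ins1 went to 0.011 under median-of-ratios rescaling and 0.0 under quantile normalization, and Ins2 to 0.0 under quantile normalization. Gcg went to 0.034 under median-of-ratios rescaling, 0.0 under quantile normalization and 0.294 for F-named libraries. Sst went to 0.051 and Ppy to -0.036 for F-named libraries. With a library left out Ins1 ran from -0.165 to 0.025, Gcg from -0.203 to 0.131 and S100a9 from -0.118 to 0.025. The causes were not tested. No paired analysis was possible because the adult libraries of batches 2 and 3 share no replicate number. With 2 adult libraries in batch 3, of 17337348 and 18458928 fragments, small differences and genes near 0 are the least certain.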
